A study of Mus musculus with 12 samples.

Results

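The genes described here encode the proteins of the mitochondrial ribosome. They were chosen by name alone: every probe set annotated to exactly 1 gene whose symbol is Mrpl or Mrps followed by a number and at most 1 letter, with pseudogenes left out. The rule gave 87 probe sets of 74 genes, of 18820 genes with a probe set of their own, and where a gene had several, the brightest on average over the 12 arrays stands for it. Of the 74 genes, 46 are named Mrpl (large subunit) and 28 Mrps (small subunit), and all 74 were among the 12961 genes bright enough to be tested.

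The arrays are Affymetrix Mouse Gene 1.1 ST arrays hybridised with total RNA of mouse B lymphoma cells kept in primary culture. The tumours came from l-MYC;B1-8f mice on a C57BL/6J x BALB/c background, in which an immunoglobulin lambda-driven MYC transgene produces B cell lymphoma and the heavy-chain variable gene that the B cell antigen receptor (BCR) needs can be deleted by Cre. All groups carry these alleles. The design asks how lymphoma cells that lost the BCR differ from BCR-positive cells growing in the same dish, and what inhibition of the kinase GSK3 or adaptation to life without the BCR changes. There are 4 groups of 3 arrays, with 1 array from each of the tumours 2567, 2646 and 2676 in every group. The BCR-positive group and the BCR-negative group were separated by sorting mixed, untreated cultures after 4 days, the BCR having been ablated by TAT-Cre, a cell-permeable form of the recombinase. CHIR99021-treated cells are BCR-negative cells sorted from such mixed cultures that had grown with the GSK3 inhibitor CHIR99021 for the same 4 days. BCR-independent cells are single clones (clone 8 of tumour 2567, clone 7 of tumour 2646, clone 1 of tumour 2676) that arose from BCR-negative cells in long culture and were grown for 4 days beside BCR-positive cells of the same tumour. Each tumour thus contributes 1 culture or 1 clone to a group. The p-values weigh a difference between groups against how such differences varied between these 3 tumours, pooled over the 4 groups. In BCR-independent cells, spread between clones and spread between tumours cannot be told apart.

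Mitochondria carry their own ribosome, which translates the few mRNAs of the mitochondrial genome into core subunits of the respiratory chain and the ATP synthase. Its RNA is made inside the organelle, whereas all of its proteins are encoded in the nucleus, made in the cytosol and imported. Some of these proteins have counterparts in bacterial ribosomes, and others were added during the evolution of mitochondria. Proliferating lymphoid cells depend on mitochondrial translation to keep up respiration, and MYC is known to raise mitochondrial biogenesis.

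The arrays were alike in scale: the median over all probe sets lay between 3.32 and 3.44 log2 units and the 75th percentile between 5.23 and 5.46. The B cell markers Cd79a, Cd79b, Pax5, Ebf1 and Blnk averaged 10.16, 9.40, 8.44, 8.51 and 8.06, but Ms4a1 averaged 2.73, under the array medians. The 5 T cell markers with a probe set averaged 2.84 to 3.63, and the 3 NK cell markers 2.66 to 3.20. Of 5 macrophage markers only Itgam (4.93) lay clearly above the array medians, and of 3 endothelial markers Pecam1 (6.48), a gene that B cells also express. Of 3 fibroblast markers, Col1a1 (4.17) and Col1a2 (3.90) lay above the array medians, with summed markers at 10.67 to 11.57 in treated and 10.60 to 11.38 in BCR-negative cells. The summed T cell markers lay between 15.54 and 16.02 in treated cells, just above the 14.90 to 15.50 of BCR-negative cells, with 15.14 to 15.71 in BCR-positive and 14.98 to 15.60 in BCR-independent cells. The summed B cell markers lay between 44.54 and 46.93 in the CHIR99021-treated group, between 46.39 and 49.08 in the BCR-negative, 47.21 and 48.39 in the BCR-positive and 46.58 and 49.39 in the BCR-independent group, and the part of these marker differences in the results below was not tested. In RNA of a whole sorted population, fewer cells that express a gene and less of its RNA per cell cannot be told apart. For tumours 2646 and 2676, titles of both untreated sorted populations end in "(2)", without any explanation in the labels. Treated and untreated BCR-negative arrays are therefore alike in this mark only in tumour 2567, whereas the CHIR99021-treated and BCR-independent arrays all lack it.

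Probe sets of mitochondrial ribosomal protein genes differed widely in signal in these lymphoma cells. Their mean signals over 12 arrays had a median of 6.65 log2 units, against 4.76 over all tested genes. A signal depends on each probe set's own affinity and is not scaled for length, so the order of genes by signal is an order of probe sets and not of transcript amounts. The 3 brightest were Mrps21 at 8.42, Mrps15 at 8.40 and Mrpl34 at 7.86, and the 3 dimmest Mrpl22 at 4.50, Mrps36 at 4.45 and Mrpl33 at 3.87. Mrps36, although named as a ribosomal protein, has since been assigned to the oxoglutarate dehydrogenase complex.

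Tumour of origin accounted for more of the variation than group did, in these genes as in all tested genes. The median share of variance between tumours was 50.9% for the 74 genes and 39.8% for all tested genes, while the share between groups was 22.4% and 20.7%. The tumour share was the larger in 52 of the 74 genes and in 8703 of the 12961 tested genes. Tumour 2676 had the lowest mean for 55 of the 74 genes (74.3%, against 25.2% of all tested genes). It had the highest for 2 (2.7%, against 39.6%). The largest tumour shares were those of Mrpl27 (93.8%) and Mrpl9 (90.9%), both large subunit proteins. Mrpl9 ranged from 5.71 to 6.08 on the 4 arrays of tumour 2676 and from 6.45 to 6.89 on the other 8 arrays, so this tumour did not overlap with the others. Mrpl27 showed another order, with tumour 2646 at 7.20 to 7.43 and the other 2 tumours at 6.77 to 6.93. The largest group shares were those of Mrps23 (64.4%), Mrps10 (63.6%) and Mrpl55 (62.4%). Because of this spread between tumours, the comparisons below are made within tumours.

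Of the 4 groups, CHIR99021-treated cells had the highest mean for 53 of the 74 genes (71.6%), against 34.7% of all tested genes. BCR-independent cells had the highest mean for 11 (14.9%, against 25.5% of all tested genes). BCR-negative cells had it for 6 (8.1% against 18.8%) and BCR-positive cells for 4 (5.4% against 21.0%). The lowest mean fell in BCR-negative cells for 30 genes (40.5%, against 26.6% of all tested genes) and in BCR-positive cells for 27 (36.5% against 27.8%). It fell in BCR-independent cells for 12 (16.2% against 21.3%) and in treated cells for 5 (6.8% against 24.3%).

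**Figure D1:**
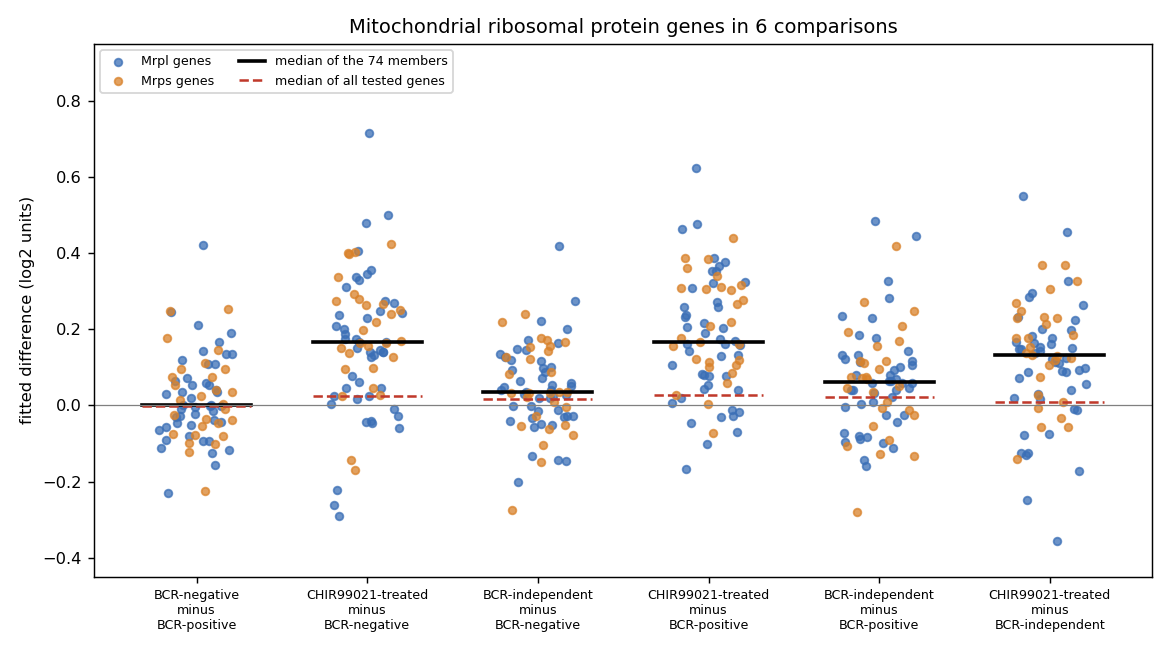
Fitted differences (log2 units, vertical axis) of the 74 mitochondrial ribosomal protein genes in the 6 comparisons of the 4 groups; each point is 1 gene, the black line the median of the 74 and the dashed line the median of all 12961 tested genes. The 3 comparisons with CHIR99021-treated cells have medians of 0.17, 0.17 and 0.13, and loss of the BCR alone has a median of 0.00.

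Promoters were read to see what sequence features the genes share. RefSeq windows of 300 bases (250 before to 50 after a transcription start, GRCm38.p6) were at hand for 65 of the 74 genes, and 6 short motifs were searched on both strands. The core GCGCATGC of NRF1, a factor known for driving nuclear genes of mitochondrial function, occurred in windows of 8 genes (12.3%), against 5.5% of the 10287 tested genes with a window. The core CCGGAAGT of ETS factors such as GABP occurred for 11 genes (16.9% against 8.1%), and the core AAGATGGC of YY1 for 12 (18.5% against 4.8%). One or more of these 3 motifs occurred for 28 of the 65 genes (43.1%, against 16.9%). The E-box CACGTG, the letters that MYC and related factors bind, occurred for 5 genes (7.7% against 11.3%), the CRE TGACGTCA for 2 (3.1% against 3.5%) and CCAAT for 26 of the 65 (42.4% of tested genes). Over all 32851 windows, the shares were 2.7%, 3.9%, 2.7%, 7.2%, 1.8% and 37.4% in the same order of motifs. A gene counts once however many matches its windows hold, overlapping matches on both strands included, and a match is a run of letters and not a bound site.

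The sites below show the 3 motifs in the 30 bases around a match, on the strand of the gene, with the motif or its reverse complement in capitals. The first 3 hold the NRF1 core, which lies close before the start in Mrpl9 and Mrpl32 and further upstream in Mrpl10. Mrpl32 has 4 matches in its window, counting both strands, and the one nearest its start is printed. In Mrpl9 the capitals span overlapping matches on both strands. The next 3 hold the ETS core.
Mrpl9, chr3:94443298-94443327 (+): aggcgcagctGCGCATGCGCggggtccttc
Mrpl32, chr13:14613041-14613070 (-): gcggacttaacGCATGCGCtcagcccgcgt
Mrpl10, chr11:97041437-97041466 (+): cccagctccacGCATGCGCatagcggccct
Mrpl3, chr9:105053238-105053267 (+): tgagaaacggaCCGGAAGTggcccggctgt
Mrps26, chr2:130563731-130563760 (+): gctccgcggccACTTCCGGgccgggcgcag
Mrps27, chr13:99344726-99344755 (+): gtggtaggaccACTTCCGGcggaggcgggc

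Among the members, the YY1 core differed in position from these. Of 12 matches, 8 lay after the transcription start and in the direction of the gene, their first base between 12 and 37 bases downstream. Where this core lies in other tested genes was not examined. The 3 shown are those of Mrpl42, the gene with the largest difference under CHIR99021, and of Mrpl35 and Mrps7.
Mrpl42, chr10:95501904-95501933 (-): cagattgaagcAAGATGGCgagcgcgcggt
Mrpl35, chr6:71823743-71823772 (-): aggcaggctgcAAGATGGCggcttccatct
Mrps7, chr11:115604147-115604176 (+): tgacagcggccAAGATGGCtgcccccgcgc

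No common shift of mitochondrial ribosomal protein genes was detected with loss of the BCR. Between BCR-negative and BCR-positive cells of the same dish, 37 of the 74 genes were higher and 37 lower, with a median difference of 0.0009 log2 units (−0.0009 over all tested genes). No member passed limma's test at an adjusted p under 0.05 (0.00772% of all tested genes did, in either direction). At an unadjusted p under 0.05, 1 member was higher, Mrpl16, and none lower (1.47% of all tested genes were higher at that level). By tumour, 7 members were higher in each of the 3 tumours (12.4% of all tested genes). The median half-width of a member's 95% interval was 0.25 log2 units, and for 72 of the 74 genes the whole interval lay within a 1.5-fold change either way.

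The member with the largest difference in this comparison was Mrpl37, a mitochondria-specific large subunit protein. It measured 7.57, 7.50 and 7.29 in BCR-positive cells of tumours 2567, 2646 and 2676 and 8.20, 7.95 and 7.47 in BCR-negative cells. The signal was higher in each tumour while the groups overlapped, because BCR-negative cells of tumour 2676 lay below BCR-positive cells of the other 2 tumours. The fitted difference was 0.42 (SE 0.19), with a limma adjusted p of 0.999. Mrpl16, which helps shape the peptidyl transferase region of the large subunit, measured 5.59, 5.56 and 5.23 against 5.95, 5.65 and 5.52, a difference of 0.24 (SE 0.09, adjusted p = 0.999). Mrpl2, a core large subunit protein, differed by 0.21, Mrps11, a small subunit protein of the platform, by 0.18, and Mrps9 by 0.15, each higher in 3 of 3 tumours. On the lower side, Mrps36 differed by −0.23, Mrpl45, which tethers the ribosome to the inner membrane, by −0.12, Mrps15 by −0.08 and Mrps18b by −0.01, each lower in 3 of 3 tumours. None of these members passed the test.

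CHIR99021 treatment went with higher signals of most mitochondrial ribosomal protein genes, each by a small amount. Against untreated BCR-negative cells, 63 of the 74 genes (85.1%) had a positive difference and 11 a negative one, against 56.7% positive among all tested genes. The median difference was 0.17 log2 units, or 1.12-fold, against 0.03 for all tested genes, and the middle 50 percent of members lay between 0.05 and 0.27. The median was 0.18 in tumour 2567, 0.19 in tumour 2646 and 0.12 in tumour 2676, where 60, 58 and 56 of the 74 genes were higher. The all-gene medians in these tumours were 0.06, 0.02 and 0.00. The arrays are alike in title mark only in tumour 2567. With the mark as a term 56 of 74 genes were higher, against 60.6% of all tested genes. The median was then 0.16, against 0.06 for all tested genes.

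Few single members passed the test. By limma with Benjamini-Hochberg adjustment over 12961 genes, 3 of the 74 members rose (1.06% of all tested genes) and none fell. At an unadjusted p under 0.05, 19 were higher (10.4% of all tested genes), and none was lower. In each of the 3 tumours 41 members were higher (25.7% of all tested genes), and 2 were lower in each (15.8%). The 3 treated arrays lay wholly above the 3 untreated ones for 8 members (5.90%), namely Mrpl15, Mrpl30, Mrpl55, Mrps14, Mrps15, Mrps23, Mrps25 and Mrps36. For 60 of the 74 genes the whole 95% interval lay within a 1.5-fold change.

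**Figure D2:**
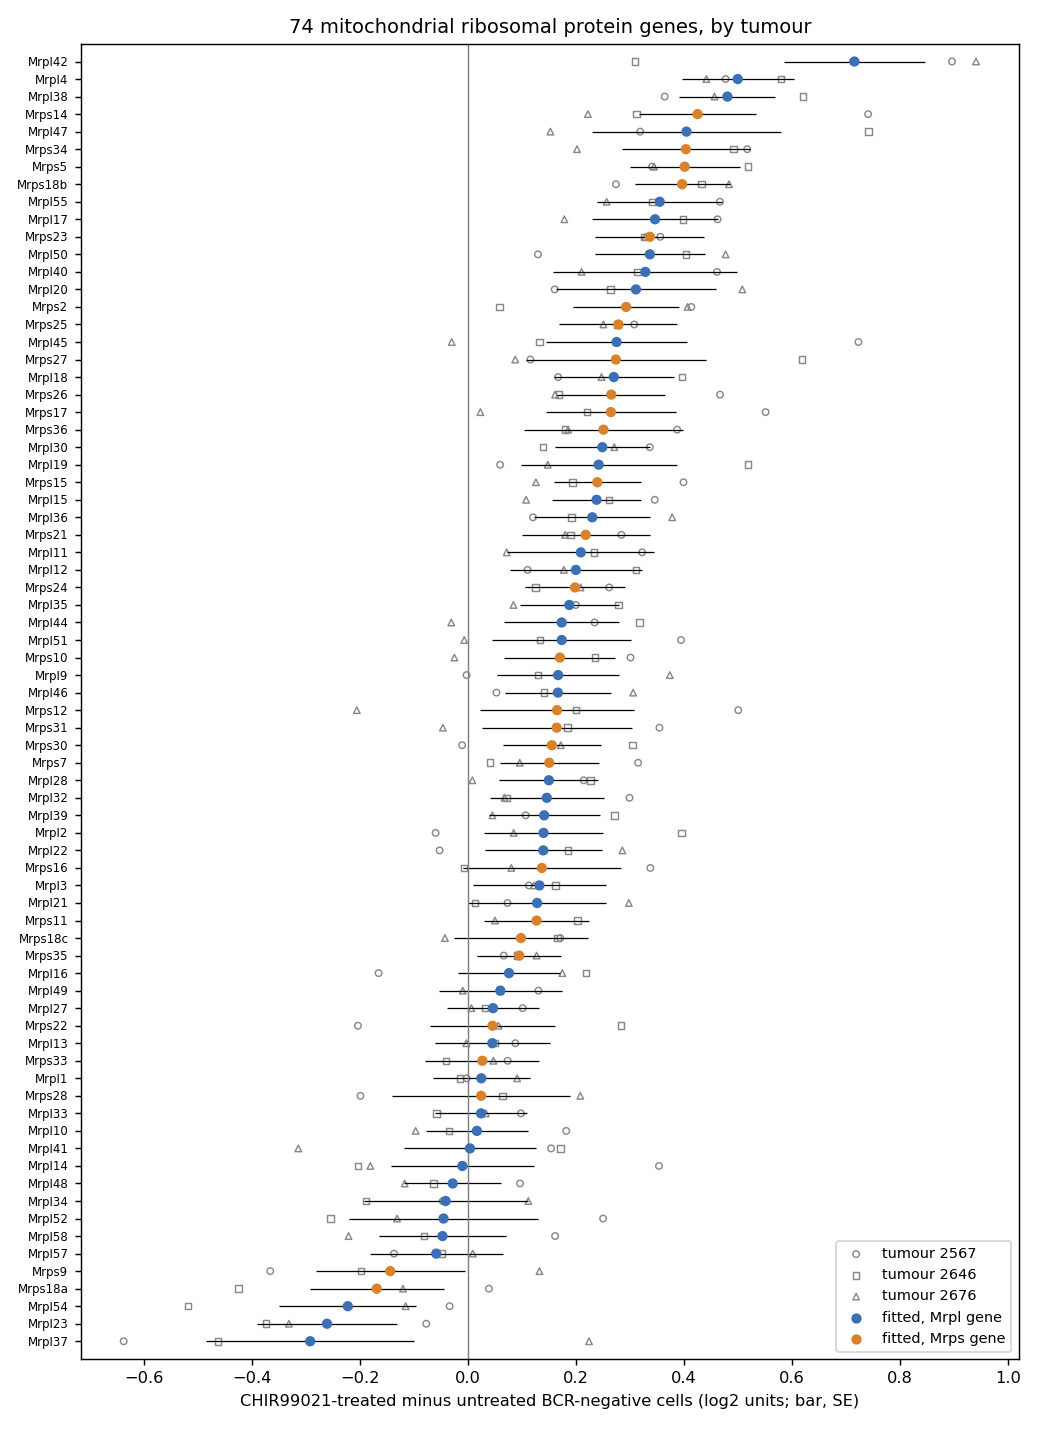
Difference between CHIR99021-treated and untreated BCR-negative cells for each of the 74 genes, ordered by the fitted value (filled points, blue for Mrpl and orange for Mrps, with bars of 1 SE); open symbols are the differences within the 3 tumours. From Mrpl42 (0.72) at the top to Mrpl37 (−0.29) at the bottom, 63 of 74 fitted values lie right of 0.

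Mrpl42, a mitochondria-specific protein of the large subunit, had the largest difference. It measured 6.61, 6.54 and 5.67 in untreated BCR-negative cells (6.27 ± 0.52, SD, n = 3) and 7.50, 6.85 and 6.61 in treated cells (6.99 ± 0.46). The 3 tumours rose by 0.90, 0.31 and 0.94, yet the groups met, with the treated array of tumour 2676 and the untreated array of tumour 2567 both at 6.61. The fitted difference was 0.72 (SE 0.13), or 1.64-fold, with an adjusted p of 0.0368. BCR-positive cells measured 6.73, 6.47 and 5.89 and BCR-independent cells 6.95, 6.72 and 6.40, so the treated array was the highest of its tumour in all 3 tumours. A second Mrpl42 probe set averaged 3.12, under the array medians, and the mean of both gave a difference of 0.45 (adjusted p = 0.0437; 0.0338 to 0.661 over the 12 alternatives).

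Mrpl38, a mitochondria-specific protein of the central protuberance of the large subunit, was highest in treated cells of every tumour. Untreated BCR-negative cells measured 7.38, 6.91 and 6.70 (7.00 ± 0.35, SD, n = 3) and treated cells 7.74, 7.53 and 7.16 (7.48 ± 0.30). BCR-positive cells (7.34, 6.99 and 6.68) and BCR-independent cells (7.24, 6.96 and 6.86) lay near the untreated BCR-negative cells. In every tumour the treated array was the highest of the 4, and 3.73% of the variance was left once tumour and group were taken out, the smallest share of the 74 genes. The difference was 0.48 (SE 0.09, adjusted p = 0.0375).

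Mrpl4, which lines the tunnel through which the new peptide leaves the ribosome, measured 7.20, 6.99 and 6.67 in untreated and 7.67, 7.57 and 7.11 in treated cells. The differences within tumours were 0.48, 0.58 and 0.44, and the fitted difference was 0.50 (SE 0.10, adjusted p = 0.0491). These 3 calls lay close to the threshold. Of the 12 alternative settings, Mrpl42 stayed under 0.05 in 6, Mrpl38 in 4 and Mrpl4 in 2. All 3 calls were lost when any 1 of the 3 tumours was left out, where 0 members were called. With the title mark as a further term the differences were 0.76, 0.36 and 0.38 (Mrpl42, Mrpl38, Mrpl4), with adjusted p of 0.149, 0.226 and 0.283. The adjusted p ranged over the alternatives from 0.0338 to 0.661 for Mrpl42, from 0.0363 to 0.682 for Mrpl38 and from 0.0474 to 0.612 for Mrpl4.

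**Figure D3:**
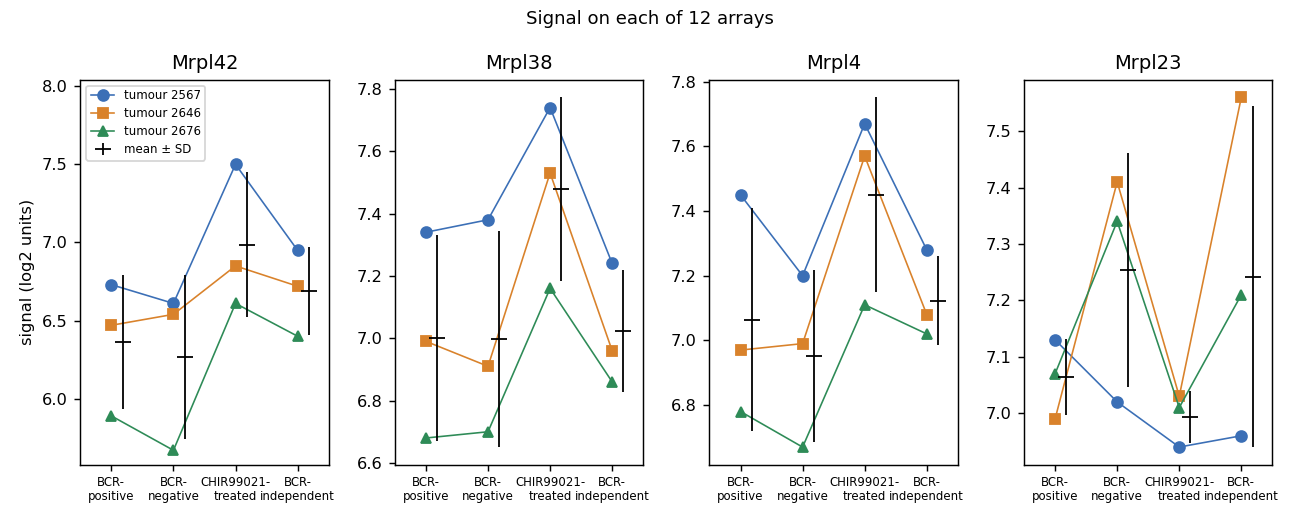
Signal (log2 units) of Mrpl42, Mrpl38, Mrpl4 and Mrpl23 on each of the 12 arrays, with lines joining the arrays of a tumour and black bars for the group mean ± SD (n = 3); the vertical scales differ between genes and do not start at 0. For the first 3 genes the CHIR99021-treated array is the highest in each tumour, whereas Mrpl23 is lowest there in tumours 2567 and 2676.

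Members of both subunits gave the next largest differences, none of which passed the test. Mrps14, a protein of the head of the small subunit, measured 4.42, 4.92 and 4.81 in untreated and 5.16, 5.23 and 5.03 in treated cells. The groups did not overlap, and the difference was 0.43 (SE 0.11, adjusted p = 0.0886). Mrps5, near the entry of the mRNA channel, measured 7.50, 6.85 and 6.79 against 7.84, 7.37 and 7.13, a difference of 0.40 (adjusted p = 0.0902). Mrps18b, a mitochondria-specific protein, measured 7.49, 7.14 and 6.98 against 7.77, 7.57 and 7.47, and differed by 0.40 with the smallest adjusted p of the small subunit (0.0599). Mrps34, also mitochondria-specific, differed by 0.40 (adjusted p = 0.123), and Mrps23 by 0.34 with nearly the same value in each tumour (0.36, 0.33 and 0.33; adjusted p = 0.128). Of the large subunit, Mrpl47 differed by 0.40 (adjusted p = 0.286) with a wide spread between tumours, from 0.15 in tumour 2676 to 0.74 in tumour 2646. Mrpl55 differed by 0.36 with groups apart (adjusted p = 0.158), Mrpl17 by 0.35 (adjusted p = 0.173) and Mrpl50 by 0.34 (adjusted p = 0.129).

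The 11 negative differences lay between −0.29 and −0.01. Only Mrpl23 and Mrpl54 were lower in each of the 3 tumours. Mrpl23, a protein at the exit of the peptide tunnel, measured 7.02, 7.41 and 7.34 in untreated and 6.94, 7.03 and 7.01 in treated cells, a difference of −0.26 (SE 0.13, adjusted p = 0.357). The treated arrays spanned less than 0.10 log2 units, and the groups overlapped through the untreated array of tumour 2567. A second Mrpl23 probe set gave −0.25. Mrpl54 differed by −0.22 (adjusted p = 0.438). Mrpl37, highest in BCR-negative and BCR-independent cells of tumours 2567 and 2646, differed by −0.64 and −0.46 in these tumours but by 0.22 in tumour 2676. Its fitted difference was −0.29, the lowest of the 74.

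The members were also read by subunit and evolutionary class, beside the 56.7% of all tested genes that were higher. Of the 29 large subunit proteins with a bacterial counterpart, 26 were higher in treated cells (median 0.15). The 15 small subunit proteins of this kind had 14 higher (median 0.17). Among mitochondria-specific proteins, 10 of 10 in the small subunit were higher (median 0.27) but 12 of 19 in the large subunit (median 0.14), a share near that of all tested genes. In tumour 2676 this class had 9 of 19 higher and a median of −0.01. That last class held both the largest rise (Mrpl42) and 7 of the 11 negative differences, among them Mrpl37, Mrpl54, Mrps18a (a large subunit protein despite its name) and Mrpl58, a peptidyl-tRNA hydrolase built into the ribosome. By name, 37 of 46 Mrpl genes (median 0.15) and 26 of 28 Mrps genes (median 0.19) were higher. Mrps36 stands in none of these 4 classes. The differences between these classes were not tested.

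The response was also read by promoter motif, without a test, over the 65 genes with a window. Mrpl4 and Mrpl38, both called above, had no window and stand in none of these medians. The median difference under CHIR99021 was 0.14 for the 8 genes with the NRF1 core, 0.10 for the 11 with the ETS core and 0.16 for the 12 with the YY1 core, against 0.17 for the genes without each of them. Of the sites printed above, that of Mrpl42 belonged to the member with the largest rise, whereas those of Mrpl35 and Mrps7 belonged to members with differences of 0.19 and 0.15 that did not pass the test.

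In BCR-independent clones, the median member lay near its level in untreated BCR-negative cells. Between these groups, 49 of the 74 genes were higher (66.2%, against 55.3% of all tested genes) and the median difference was 0.04, against 0.02. No member passed limma's test (0.00772% of all tested genes did, in either direction). At an unadjusted p under 0.05, 3 were higher (3.60%), namely Mrpl42, Mrps18b and Mrpl17. In each of the 3 tumours 15 members were higher (16.0%) and 2 lower (10.3%). The tumours differed: the median was −0.01 for clone 8 of tumour 2567, 0.11 for clone 7 of tumour 2646 and 0.05 for clone 1 of tumour 2676. Without tumour 2567 the median was 0.065, and without tumour 2646 it was 0.015, so the size of the median rested on single clones. When the fit included the title mark, 42 of 74 genes were higher and the median was 0.025, against 58.9% and 0.045 for all tested genes.

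Mrpl42 was again the member with the largest difference, at 0.42 (SE 0.13, adjusted p = 0.781), with 0.35, 0.18 and 0.73 in the 3 tumours. Both comparisons use the same BCR-negative arrays, of which that of tumour 2676 was the lowest Mrpl42 value of all 12. Mrps14 differed by 0.24, Mrps18b by 0.22, Mrpl16 by 0.20 and Mrps10 by 0.18, each higher in 3 of 3 clones and none past the test. Mrps30, a large subunit protein despite its name, measured 6.20, 6.01 and 5.74 in the clones and 6.24, 6.03 and 5.92 in BCR-negative cells, and its difference of −0.08 did not pass either. Mrpl49 was likewise lower in each clone, with a fitted difference of −0.03.

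Against BCR-positive cells of the same tumours, treated cells showed the same balance of signs. Of the 74 genes, 65 were higher (87.8%, against 57.1% of all tested genes), with a median of 0.17 against 0.03. The comparison shares its treated arrays with the one above. Limma called 1 member higher, Mrpl38 (0.355% of all tested genes), at 0.48 (SE 0.09, adjusted p = 0.0488; 0.0435 to 0.811 over 12 alternatives, of which 2 kept the call). At an unadjusted p under 0.05, 27 members were higher (9.52%). In each of the 3 tumours 33 were higher (21.2%), and the groups did not overlap for 9 (6.99%). Mrpl42 differed by 0.62 (adjusted p = 0.0640), Mrps18b by 0.39 (adjusted p = 0.0784), Mrpl4 by 0.39 (adjusted p = 0.118) and Mrps34 by 0.44 (adjusted p = 0.118).

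The BCR-independent clones against BCR-positive cells gave 52 genes higher and 22 lower, with a median of 0.06 (55.7% higher and a median of 0.02 over all tested genes). The tumour medians were −0.02, 0.11 and 0.09 in tumours 2567, 2646 and 2676. The median was 0.101 without tumour 2567 and 0.036 without tumour 2646. With the title mark as a term it was 0.011, with 42 of 74 genes higher, against 0.041 and 58.0% for all tested genes. No member passed limma's test (0.0849% of all tested genes did, in either direction), 6 were higher at an unadjusted p under 0.05 (5.38%), and 17 were higher in each of the 3 tumours (15.1%). Mrpl37 had the largest difference, 0.49 (SE 0.19, adjusted p = 0.464), with 0.94, 0.39 and 0.13 in the 3 tumours. Mrpl16, at 0.45 (SE 0.09), had the smallest p and measured 6.08, 5.97 and 5.67 in the clones and 5.59, 5.56 and 5.23 in BCR-positive cells. The groups did not overlap and the 3 differences were close (0.49, 0.41 and 0.44), yet the adjusted p was 0.215. Mrps10, a small subunit protein, also had groups apart, at 7.40, 7.60 and 7.54 against 7.13, 7.38 and 7.21 (difference 0.27, adjusted p = 0.450). The Mrps10 probe sets of rank 2 and rank 3 by mean signal each gave only 0.14. Clones lay wholly above BCR-positive cells for 4 of the 74 members and for 621 of the 12961 tested genes.

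The direct comparison of treated cells with BCR-independent clones, whose arrays are alike in title mark, gave 59 genes higher in treated cells and 15 lower. The median was 0.13, against 0.01 over all tested genes. No member passed limma's test (0.162% of all tested genes did, in either direction), 11 were higher at an unadjusted p under 0.05 (7.05%), and 30 were higher in each of the 3 tumours (19.4%). Mrpl38 again had the smallest p, with differences of 0.50, 0.57 and 0.30 in the 3 tumours (fitted 0.46, adjusted p = 0.119). Tumour 2567 contributed most: its median was 0.23, against 0.06 in each of the other 2, and without it the median of all 74 genes was 0.06, with 50 genes higher.

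Other genes of the mitochondrial translation pathway were read beside the members. Of 3 ribosomal proteins with other names, Ptcd3, which handles the incoming mRNA, differed by 0.37 in treated against BCR-negative cells (0.19, 0.46 and 0.47 by tumour; adjusted p = 0.102), whereas Dap3, a GTP-binding protein, differed by −0.05 and Chchd1 by −0.07. Of 22 assembly factors, 18 were higher (median 0.14), and none passed the test. Their tumour medians were 0.21, 0.13 and 0.02, with 13 of 22 higher in tumour 2676. Fastkd2, which acts on the large ribosomal RNA, measured 5.20, 5.19 and 5.09 in BCR-negative, 5.66, 5.55 and 5.38 in treated and 5.07, 5.19 and 4.92 in BCR-positive cells. Treated arrays lay above all others, and the rise passed the test against BCR-positive cells (0.47, SE 0.08, adjusted p = 0.0376) but not against BCR-negative cells (0.37, adjusted p = 0.0536). Against BCR-positive cells, 0.355% of all tested genes were called higher. Whether the alternative settings keep the Fastkd2 call was not tested.

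Of 13 translation factors, 12 were higher in treated than in BCR-negative cells (median 0.15). Only 1 passed the test, where 1.06% of all tested genes were called higher. This was Lrpprc, which stabilises mitochondrial mRNAs. It measured 7.92, 7.42 and 7.51 in BCR-negative and 8.34, 7.98 and 7.94 in treated cells, a rise of 0.47 (SE 0.10, adjusted p = 0.0480) with groups apart. The Lrpprc call lay close to the threshold, and whether the alternative settings keep it was not tested. The elongation factor Tufm differed by 0.36 (adjusted p = 0.0627) and Gfm1 by 0.34 (adjusted p = 0.211). The median of this list rested on tumour 2567, at 0.41, against 0.06 and 0.01 in the other 2 tumours.

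A list of the mitochondrion's own transcription machinery together with factors and coactivators upstream of mitochondrial biogenesis did not share the positive balance. Of its 13 tested genes, 7 were higher, with a median of 0.01, and none passed the test. Nrf1 differed by −0.13, Gabpa by −0.10, Yy1 by −0.15 and Tfam, which packages mitochondrial DNA, by 0.05. The probe set of the mouse Myc gene averaged 3.15 to 3.39 in the 4 groups, near the array medians. Whether it also reads the MYC transgene was not tested, so its signal is not a measure of all MYC RNA in these cells. Pprc1, a coactivator of the PGC-1 family, had the largest difference of this list, 0.44 (adjusted p = 0.145), with −0.02, 0.56 and 0.78 in the 3 tumours. Transcripts of the mitochondrial genome itself were not analysed here.

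Cytosolic ribosomal protein genes, the counterpart of the members outside the mitochondrion, leaned the other way. In treated against BCR-negative cells, 61 of 71 were lower and 10 higher, with a median of −0.10 and tumour medians of −0.06, −0.12 and −0.13. Among all tested genes 5606 of 12961 were lower. None of the 71 passed limma's test, and 10 were lower at an unadjusted p under 0.05, as were 804 of the 12961 tested genes. Nuclear subunits of respiratory complex I, for which mitochondrial translation supplies partner subunits, had 24 of 34 higher and a median of 0.10, of which tumour 2567 gave 0.22 and the other 2 tumours 0.04 and 0.03.

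**Figure D4:**
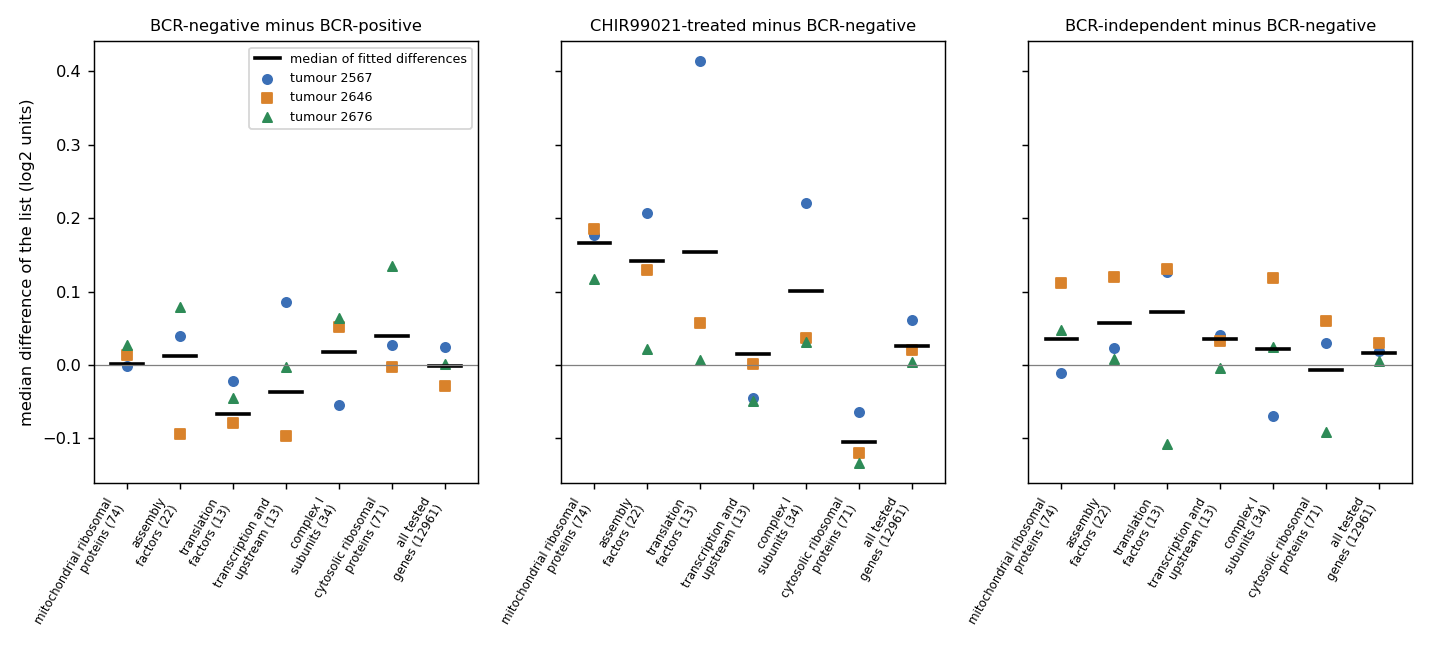
Median difference (log2 units) of 7 gene lists in 3 comparisons; black lines are medians of the fitted values and symbols the medians within each tumour. In the middle panel all 3 tumours lie above 0 for mitochondrial ribosomal proteins (0.18, 0.19 and 0.12) and below 0 for cytosolic ribosomal proteins (−0.06, −0.12 and −0.13).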

How the data were processed

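The deposited values are log2 signals per probe set, made by the authors with RMA; the submitters' processing notes also name Affymetrix Power Tools, and no version was at hand. The array design lists 35556 probe sets, of which 21218 name 1 gene, 1881 several and 12457 none. Symbols of 21185 were updated by gene identifier from RefSeq (GRCm38.p6) and 33 kept. Genes were tested if their brightest probe set exceeded the array's 40th percentile (3.06 to 3.16) on at least 3 of 12 arrays. limma 3.58.1 (R 4.3.3) was fitted over all 12 arrays with group and tumour as terms (6 residual and 3.41 prior degrees of freedom), tested on simulated data, with Benjamini-Hochberg adjustment over 12961 genes. Tumour numbers pair the arrays: every array correlated best with its own tumour after group means were removed (12 of 12, with r of 0.284 to 0.792 within and −0.716 to 0.165 between tumours). Removing group means by itself lowers the correlations between tumours, so that range does not measure how unlike the tumours are. Named genes were those called, those with the largest differences of one sign in all tumours in the first 3 comparisons, and the brightest and dimmest; others were chosen after their values were seen. Members, classes and lists were chosen with earlier results of these data known. The number of arrays limits precision.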

Additional observations from a re-analysis of the deposited data

How the results depend on the processing

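For CHIR99021-treated against BCR-negative cells, 3 members were called. The count was 2 with no filter, 2 with the intensity trend, 1 with cyclic loess and 1 with quantile normalization. It was 0 with no replicate block, with only the 2 groups compared, with the title mark as a term, or without any 1 tumour (0 to 0). The median of 0.17 was 0.125 with cyclic loess, and between 56 and 64 of 74 members were higher under every alternative. For treated against BCR-positive cells, 1 member was called, but 2 when each gene's probe sets were averaged and 0 with no replicate block, the stricter filter, the intensity trend, cyclic loess, quantile normalization, only 2 groups, the title mark, or without any 1 tumour (0 to 0). In the 3 comparisons with BCR-independent clones no member was called under any setting, but the medians moved: from 0.036 to between 0.015 and 0.065 against BCR-negative cells, from 0.062 to between 0.011 and 0.101 against BCR-positive cells, and from 0.132 to between 0.062 and 0.161 for treated cells against the clones. No named member that was called changed direction. Of 12 members with several probe sets, the second kept the sign of the first in 9 for treated against BCR-negative cells. With 3 tumours, the 95% intervals of members with differences under about 0.25 log2 units mostly included 0.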

Other observations

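Another 4 genes of the family, Mrps6, Mrpl24, Mrpl43 and Mrpl53, had signals only on probe sets that also read a neighbouring gene, and stand in no count above. In treated against BCR-negative cells, the probe set of Mrps6 and Slc5a3 differed by 0.33, that of Mrpl43 and Sema4g by −0.15, and that of Mrpl24 and Rrnad1 by −0.07. The probe set of Ccdc142 and Mrpl53 differed by less than 0.01. Which of the genes on each probe set gives the signal cannot be told apart.

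Among members with several probe sets, the probe sets did not always move together. For Mrpl51, BCR-negative minus BCR-positive cells gave −0.03 on the brighter probe set (mean 6.78) and −0.40 on the dimmer (mean 5.14). For Mrpl27 the same comparison gave −0.03 (mean 6.99) and 0.19 (mean 5.58). Mrps5, in contrast, gave 0.40 and 0.45 in treated against BCR-negative cells, and Mrpl12 gave 0.20 on both. Positions of the probe sets were not used here, so whether a probe set reads a near-identical copy elsewhere was not tested.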
